A study of Mus musculus with 6 samples.

Results

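The step from neuronal progenitors to the last stage of a mouse stem cell differentiation was examined by comparing 2 libraries labelled NC with 2 libraries labelled NPC, 4 of the 6 libraries of the series, over every gene of the deposited abundance tables. Members were chosen by the stage given in each sample's title. The remaining 2 libraries are undifferentiated embryonic stem cells (mESC), which entered the model through the shared estimate of spread and through the filter on low values. All groups derive from E14TG2a, a mouse embryonic stem cell line that carries an inactivated Hprt gene, and are labelled wild type. The stem cells were untreated and were kept without feeder cells in serum and LIF. NPC and NC were both taken through a published protocol that forms cell aggregates, applies retinoic acid and then plates the dissociated cells. The labels do not spell out NC. The series design lists terminally differentiated glutamatergic pyramidal neurons as the last stage, and no day of culture is given. As a model, each group is a single line grown in culture, without sorting, in 2 replicates called biological, so p-values measure the spread between these libraries, part of which may be technical.

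Retinoic acid drives cultured stem cell aggregates towards the neural lineage and sets the position of neural cells along the body axis by switching on HOX genes. Radial glia-like progenitors divide, hold Notch signalling and express Pax6 and Sox2. When they leave the cell cycle, proneural factors switch on the tubulins, ion channels and vesicle proteins of neurons. Neurons load glutamate or GABA into vesicles with transporters that mark their transmitter.

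Depth was read as the most common ratio of coverage to FPKM among genes at 1 FPKM or more. It was 2.253 and 1.985 Gb of aligned bases for NPC replicates 1 and 2 and 1.791 and 2.132 Gb for NC replicates 1 and 2. Between 38.3% and 39.3% of those genes stood within 0.1% of that ratio. Abundance is given in TPM, which is scaled for transcript length and library size. Genes at 1 TPM or more numbered 17740 and 18015 in NPC and 18599 and 19040 in NC. Hprt was between 0.911 and 2.016 TPM in these 4 libraries. The NC libraries were less alike than the NPC libraries: 8.6% of the genes tested differed by over 2-fold between the NC libraries (1740 genes) and 3.4% between the NPC libraries (681 genes), on log2(TPM + 1). For that reason both NC values stand beside each result.

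Of 20232 genes tested with limma on log2(TPM + 1), 5123 differed between NC and NPC at a Benjamini-Hochberg adjusted p under 0.05, which is 25.3% of the genes tested. The genes higher in NC numbered 3079 (15.2% of those tested) and the genes lower in NC 2044 (10.1%). At 8-fold or more, 118 genes rose and 50 fell. The split of higher against lower calls moved with scaling: 60.1% of calls were higher in NC as deposited, 54.9% after median-of-ratios scaling and 47.7% after quantile normalization. The median log2 fold change over all genes was 0.11 as deposited and -0.02 after quantile normalization. The number of calls was 805 without NPC replicate 1, 1454 without NPC replicate 2 and 3170 without NC replicate 2, where the lone library was assumed to vary like the other groups. Leaving out an NC library also took genes found in NC alone below the filter of 1 TPM in 2 libraries, so that 4709 of the 5123 were tested. No gene called both in full and in any of these leave-out fits changed sign.

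Among named genes with at least 20 TPM in the higher group, the 12 with the largest rise held matrix genes, neuropeptides and neuronal regulators. Tnc, which encodes the matrix protein tenascin C (chr4:63959785-64047015 in mm10), was at 0.345 and 0.573 TPM in NPC and at 86.4 and 215.7 TPM in NC, a log2 fold change of 6.56 (SE 0.46, limma adjusted p = 0.00286). Mab21l2, a regulator of eye and neural development (chr3:86545581-86548629), was at 1.902 and 2.657 TPM in NPC and 297.7 and 170.3 TPM in NC, a log2 fold change of 6.12 (SE 0.31, limma adjusted p = 0.00206). In both genes every NC library stood above every NPC library, which the naming rule required. Crym, which encodes a thyroid hormone binding protein, rose by 5.61, with 266.4 TPM in NC replicate 1 and 40.8 in replicate 2. S100a6 rose by 5.36, Postn by 5.001, Anxa1 by 4.76, Bgn by 4.73, Npy by 4.61, Tnik by 4.57, Pnoc by 4.54, Col1a2 by 4.45 and Col6a3 by 4.43, all on the log2 scale. Postn, Bgn, Col1a2 and Col6a3 encode matrix proteins of connective tissue, and Npy and Pnoc are precursors of neuropeptides.

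The largest falls were led by enzymes that break down or store retinoic acid and by sugar metabolism. Cyp26b1 (chr6:84571414-84593908), a cytochrome that inactivates retinoic acid, fell by 7.52 on the log2 scale, the largest fall under this rule. Hk3, a hexokinase gene that overlaps Unc5a on the opposite strand, fell by 5.19, and its partner Unc5a, a netrin receptor, fell by 3.09. Reads of that pair cannot be told apart where the genes overlap, since no strand setting is given in the sources used here. Mir1957a, which lies within Slc2a1 on the same strand, fell by 4.16 and Slc2a1 itself by 4.86. Car4, Wnt1, Arg1, Nepn and Espn fell by 4.89, 4.46, 4.42, 4.23 and 4.06. Wnt1, a signal of the dorsal midline of the neural tube, was at 29.5 and 91.2 TPM in NPC and at 0.312 and 3.421 TPM in NC.

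**Figure D1:**
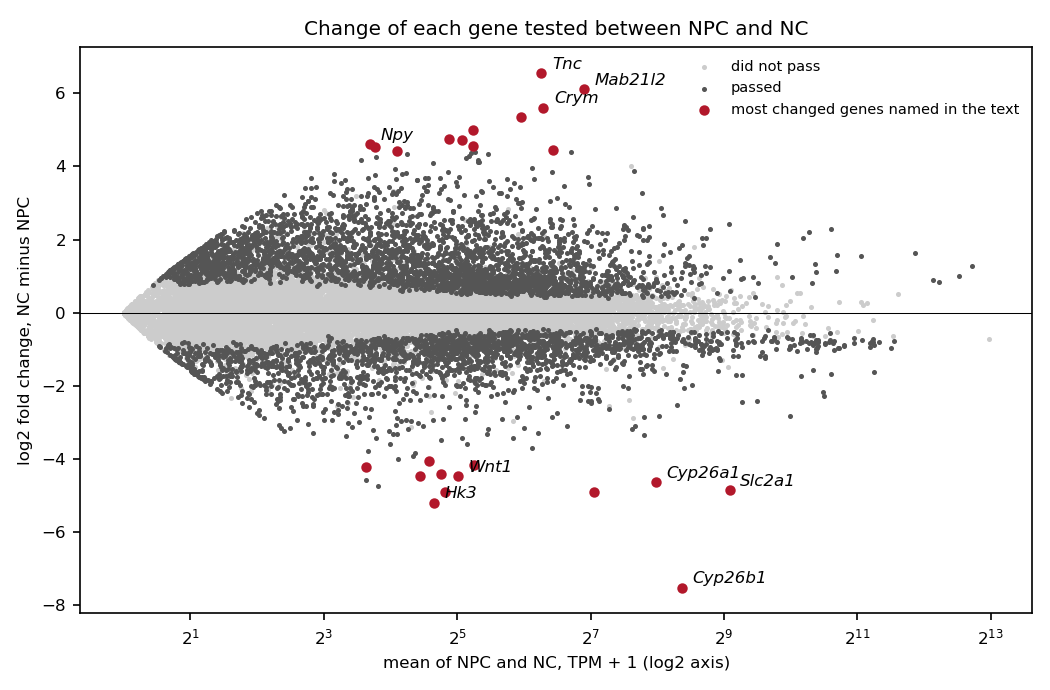
Each point is 1 of the 20232 genes tested, with the mean TPM + 1 of the 4 libraries on a log2 axis and the log2 fold change of NC over NPC on the other axis. Dark points passed the test, grey ones did not, and red points are the 24 most changed genes by the naming rule. Tnc at 6.56 and Cyp26b1 at -7.52 mark the ends of the range.

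Of 18 genes of retinoic acid handling, all tested, 11 fell and 2 rose, beside 10.1% of all genes lower and 15.2% higher. Their median log2 fold change was -1.68, beside 0.11 over all genes. The degrading enzymes fell most. Cyp26b1 was at 573.5 and 734.4 TPM in NPC and at 2.516 and 2.567 TPM in NC (SE 0.21, limma adjusted p = 0.000173), and the NC libraries differed by 0.021 log2 units. Cyp26a1, which does the same reaction, was at 518.6 and 443.1 TPM in NPC and at 11.2 and 29.8 TPM in NC, a fall of 4.63. Cyp26c1 fell by 4.47. Dhrs3, which turns retinal back to retinol, was at 167.9 and 342.6 TPM in NPC and at 4.775 and 10.2 TPM in NC, a fall of 4.91. Rarb, a receptor and a known target of retinoic acid, was at 134.5 and 178.6 TPM in NPC and at 19.5 and 25.3 TPM in NC, a fall of 2.75. Among the binding proteins, Crabp2 fell by 1.61, whereas Crabp1 was at 846.9 and 536.9 TPM in NPC and at 1453 and 895.7 TPM in NC and did not pass (adjusted p = 0.109). Rxrg, a receptor partner, rose from 0.189 and 0.879 TPM to 6.531 and 3.655 TPM. Leaving out NPC replicate 1 gave 6 lower and 0 higher, and the count higher was 1, 0 and 1 without NPC replicate 2, NC replicate 1 and NC replicate 2. Cyp26a1 did not pass without NPC replicate 1 (adjusted p = 0.0621), nor did Rxrg without NPC replicate 1 (0.11) or NC replicate 1 (0.0609).

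The promoters of Cyp26a1 and Rarb are shown because they were the 2 of 29 windows of retinoic acid genes that held a DR5 retinoic acid response element, a direct repeat that receptor pairs bind. The printed stretches run from 250 bases before to 30 bases after the RefSeq start, are given 5' to 3' on the strand of the gene in GRCm38.p6 (mm10), and carry the element in capitals. The element was searched on both strands of the whole windows, which end 50 bases after the start, after values had been seen, and 0.4% of all 32851 windows of the RefSeq promoter table held it, against 6.9% of the 29.
Cyp26a1 chr19:37697558-37697837 (plus strand): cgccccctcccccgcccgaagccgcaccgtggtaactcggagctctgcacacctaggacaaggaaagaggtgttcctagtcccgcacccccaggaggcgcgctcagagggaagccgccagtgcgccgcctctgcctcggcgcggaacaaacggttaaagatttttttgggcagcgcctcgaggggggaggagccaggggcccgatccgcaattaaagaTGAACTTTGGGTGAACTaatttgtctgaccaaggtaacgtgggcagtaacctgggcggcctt
Rarb chr14:16575447-16575726 (minus strand): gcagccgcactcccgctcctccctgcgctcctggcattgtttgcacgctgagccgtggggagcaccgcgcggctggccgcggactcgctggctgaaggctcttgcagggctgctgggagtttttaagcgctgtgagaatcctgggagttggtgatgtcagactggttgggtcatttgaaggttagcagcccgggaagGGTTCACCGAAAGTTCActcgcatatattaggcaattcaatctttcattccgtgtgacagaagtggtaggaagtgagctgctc
In Cyp26a1 the element ended 16 bases before the start and in Rarb 37 bases before it. A match is a description of these letters and says nothing of binding in these cells.

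All 30 genes of mitosis fell, as did 28 of 30 genes of DNA replication, beside 10.1% of all genes lower. The median log2 fold change was -1.26 for mitosis and -1.39 for replication. The replicative helicase subunits led: Mcm3 (chr1:20802968-20820312) was at 198.6 and 184.5 TPM in NPC and 35.8 and 47.0 TPM in NC, a fall of 2.19 (SE 0.16, limma adjusted p = 0.00286). Mcm5 fell by 2.15 and Mcm6 by 2.01. Cdt1, which loads the helicase, fell by 1.97 and Pcna, the sliding clamp, by 1.46. Fen1 and Orc6 did not pass (adjusted p = 0.0529 and 0.107). In mitosis, Top2a, which untangles chromosomes, was at 363.4 and 351.1 TPM in NPC and 123.7 and 122.8 TPM in NC, a fall of 1.53. Birc5 and Aurkb, both of the chromosomal passenger complex, fell by 1.62 and 1.61, and Kif11, the spindle motor, by 1.57. Mki67, the antigen of cycling cells, was still at 70.2 and 79.4 TPM in NC, against 172.2 and 131.7 TPM in NPC, a fall of 1.00. No NC library reached the NPC range for any of the 60 genes, and none differed by over 2-fold between the NC libraries. Of all 20232 genes tested, 5702 were lower in both NC libraries than in either NPC library. In such bulk libraries fewer dividing cells and less RNA per cell cannot be told apart. Leaving out NPC replicate 1 gave 17 mitosis and 15 replication genes lower, and leaving out NPC replicate 2 gave 18 replication genes. Mki67 did not pass without NPC replicate 1 (adjusted p = 0.123) or NC replicate 1 (0.064).

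Promoters of mitotic genes are known for the CHR motif TTTGAA and the CCAAT box. Both were searched on both strands in 26 windows of the 24 mitosis genes, of 30, that matched the RefSeq table, and in those of 25 of 30 replication genes. Neither motif contains the other. The CHR motif was in 73.1% of the 26 mitosis windows and in 17.9% of all windows, and CCAAT was in 76.9% against 37.4%. In the 29 windows of replication genes the CHR motif was in 13.8%, while 4 forms of the E2F site (TTTGGCGC, TTTGCCGC, TTTCGCGC and TTTCCCGC) were in 37.9%, against 2.3% of all windows and 3.8% of mitosis windows. The 3 mitotic genes with the largest fall that hold a CHR motif were Kif11, Top2a and Ect2. Their windows are printed with both motifs in capitals, in either orientation.
Kif11 chr19:37376132-37376411 (plus strand): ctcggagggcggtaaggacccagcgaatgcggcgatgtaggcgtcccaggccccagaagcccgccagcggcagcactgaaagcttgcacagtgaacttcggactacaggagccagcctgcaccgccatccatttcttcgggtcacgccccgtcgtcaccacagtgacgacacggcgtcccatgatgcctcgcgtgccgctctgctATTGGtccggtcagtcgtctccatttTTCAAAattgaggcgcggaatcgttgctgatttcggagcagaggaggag
Top2a chr11:99024160-99024439 (minus strand): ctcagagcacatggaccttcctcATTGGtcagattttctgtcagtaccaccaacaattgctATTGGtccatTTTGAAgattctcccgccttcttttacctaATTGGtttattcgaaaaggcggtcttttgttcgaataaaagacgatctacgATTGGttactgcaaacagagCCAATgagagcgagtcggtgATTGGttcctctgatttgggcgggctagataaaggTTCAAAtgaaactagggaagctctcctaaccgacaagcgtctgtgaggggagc
Ect2 chr3:27153849-27154128 (minus strand): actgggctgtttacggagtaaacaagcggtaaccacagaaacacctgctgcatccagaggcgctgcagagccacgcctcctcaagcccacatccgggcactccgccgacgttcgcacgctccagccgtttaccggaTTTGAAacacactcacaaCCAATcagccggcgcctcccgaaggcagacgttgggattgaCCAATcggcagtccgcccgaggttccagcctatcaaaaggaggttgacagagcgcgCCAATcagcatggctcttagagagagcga
In Kif11 the CHR motif ended 14 bases before the start. Top2a held 6 CCAAT boxes and Ect2 held 3. Some windows belong to the same gene, and the motif shares describe letters, not use.

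**Figure D2:**
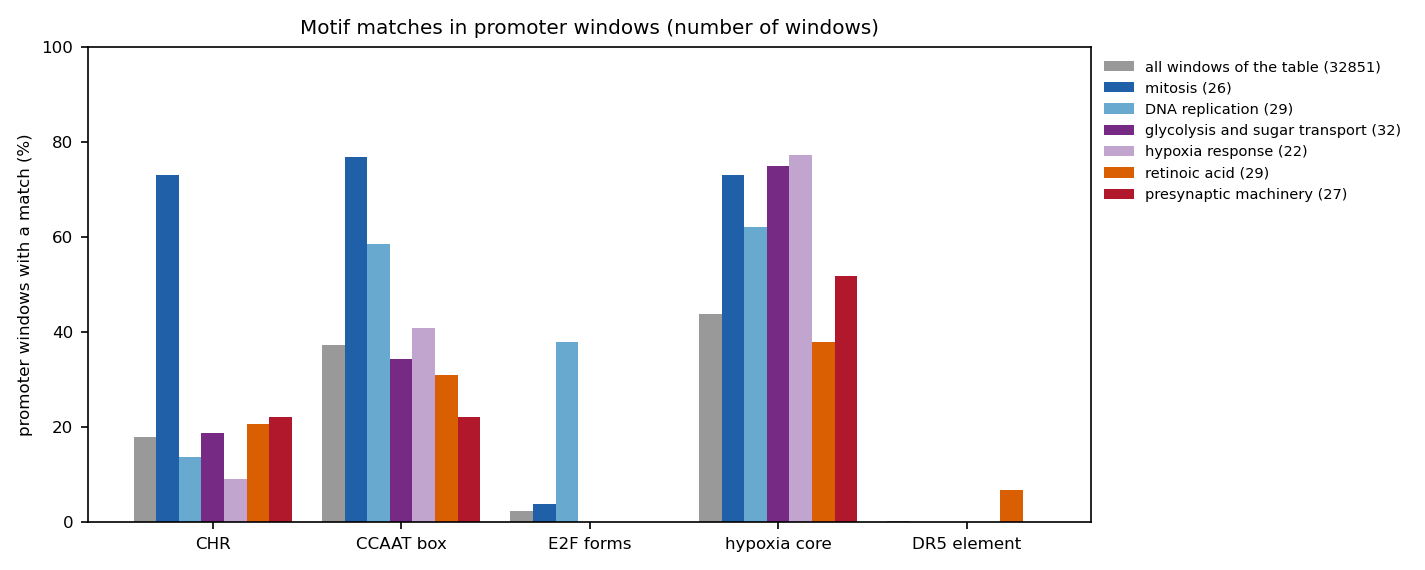
Bars give the percent of promoter windows (250 bases before to 50 after the RefSeq start) with a match on either strand, for 6 gene lists and all 32851 windows. The CHR bar of the mitosis genes stands at 73.1% against 17.9% for all windows, and the E2F bar of replication genes at 37.9% against 2.3%.

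Of 15 cyclin-dependent kinase inhibitors and p53 targets, 8 rose and 0 fell, beside 15.2% of all genes higher and 10.1% lower. The median log2 fold change was 0.67, against 0.11 over all genes. Cdkn1a, an inhibitor induced by p53, was at 67.6 and 76.6 TPM in NPC and at 267.9 and 470.8 TPM in NC, a rise of 2.29 (limma adjusted p = 0.00371). Cdkn2b rose by 2.03, Cdkn1c by 1.35 and Trp53inp1 by 1.31. Cdkn1b and Trp53 did not pass (adjusted p = 0.615 and 0.118). Both groups stood apart for Cdkn1a and Cdkn1c, as they did for 13855 of the 20232 genes tested. Leaving out NPC replicates 1 and 2 gave 2 and 3 genes higher. Cdkn1c did not pass without NPC replicate 1, NPC replicate 2 or NC replicate 1 (adjusted p = 0.115, 0.0512 and 0.0718), nor Trp53inp1 without NPC replicate 1 (0.0514).

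Of 19 progenitor and radial glia genes, 4 fell and 3 rose, beside 10.1% of all genes lower and 15.2% higher. The share higher was near that of all genes. Pax6, a progenitor transcription factor with an antisense partner, was at 256.8 and 181.4 TPM in NPC and at 78.5 and 33.5 TPM in NC, a fall of 2.05 (limma adjusted p = 0.0159). Sox3 fell by 2.57 and Hes1, a Notch effector, by 1.66. Sox2 was at 71.3 and 88.3 TPM in NPC and 89.3 and 44.5 TPM in NC (adjusted p = 0.482), and Nes at 102.0 and 109.6 TPM against 84.2 and 119.8 TPM (adjusted p = 0.864). The ranges of both overlapped between the groups. Fabp7, the lipid carrier of radial glia, was at 34.1 and 68.1 TPM in NPC and at 791.5 and 163.7 TPM in NC, a rise of 2.87. Vim rose by 0.98 and Ptn by 1.60. In the Notch pathway 3 of 18 genes rose and 2 fell, shares near the 15.2% and 10.1% of all genes. Dll3 rose by 1.52 and Jag1 by 1.30, Lfng fell by 1.95, and Hes5 was at 359.5 and 287.4 TPM in NPC and at 130.7 and 13.7 TPM in NC (adjusted p = 0.0581). The 2 directions moved with the NC library: without NC replicate 1, 8 progenitor genes and 5 Notch genes were lower and 0 progenitor genes higher. Leaving out NPC replicate 1 gave 0 progenitor and 0 Notch genes higher and 1 progenitor gene lower. Leaving out NPC replicate 2 gave 1 progenitor and 1 Notch gene higher and 1 progenitor gene lower, and 1 progenitor gene was higher without NC replicate 2. Fabp7 did not pass without NPC replicate 1 (adjusted p = 0.159), NPC replicate 2 (0.0712) or NC replicate 1 (0.05), where its rise was 1.74. Pax6 did not pass without NPC replicate 1 (0.109) or 2 (0.0574), Dll3 without NPC replicate 1 (0.0847), Jag1 without either NPC library (0.0887 and 0.0993), and Sox3, Vim and Ptn without 3 or 4 of the NPC and NC libraries in turn (between 0.051 and 0.248).

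Proneural factors rose in 11 of 15 tested and fell in 0, beside 15.2% of all genes higher and 10.1% lower. Their median log2 fold change was 1.64. Myt1l, a repressor of non-neuronal genes, was at 2.161 and 4.493 TPM in NPC and at 47.4 and 35.8 TPM in NC, a rise of 3.34 (limma adjusted p = 0.00323). Ebf2 rose by 2.68, Ebf1 by 2.48 and Ebf3 by 2.05, factors of neurons that have just left the cycle. Early factors did not pass: Neurog2 was at 31.8 and 31.4 TPM in NPC and 59.6 and 18.8 TPM in NC, Neurog1 at 128.4 and 161.4 against 141.1 and 75.0 TPM, and Neurod1 at 34.0 and 31.2 against 36.9 and 18.7 TPM. Each of these 3 was higher in NC replicate 1 than in NC replicate 2. The proneural count was 6 when NPC replicate 1 was left out.

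**Figure D3:**
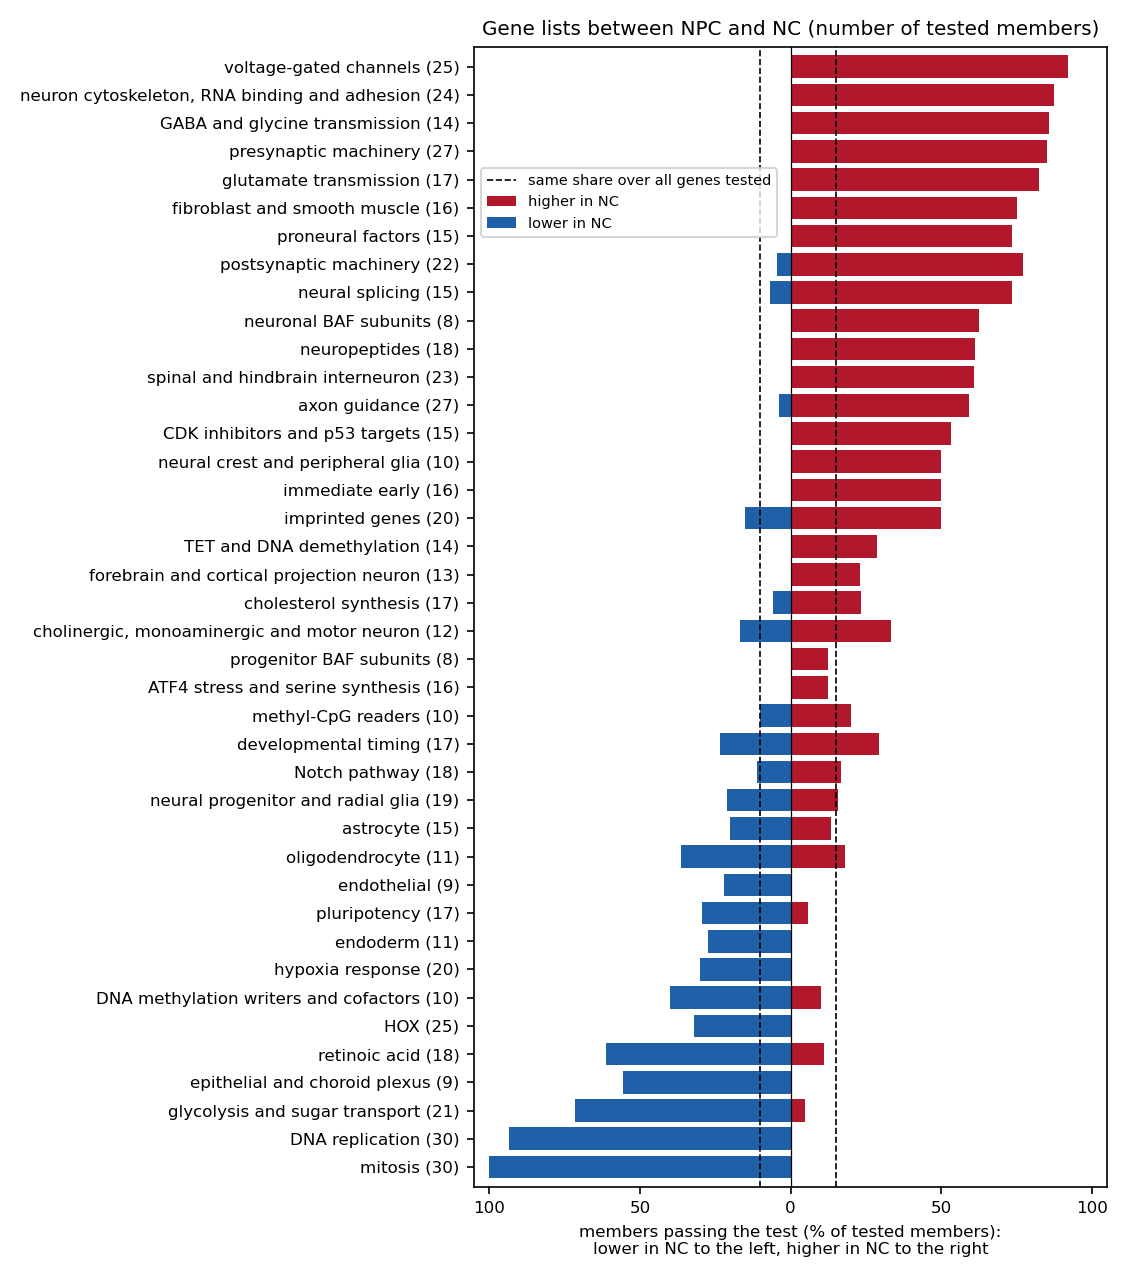
Bars show the share of tested members that passed the test, to the right for genes higher in NC and to the left for genes lower in NC, for gene lists with 8 or more tested members (number in brackets). Dashed lines mark the same shares over all genes, 15.2% higher and 10.1% lower. Channels and the neuron cytoskeleton stand at one end and mitosis at the other.

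Of 24 genes of the neuronal cytoskeleton, RNA binding and adhesion, 21 rose and 0 fell, beside 15.2% of all genes higher and 10.1% lower. Their median log2 fold change was 2.15. Tubb3, the neuronal tubulin, was at 350.7 and 541.4 TPM in NPC and at 2135 and 1911 TPM in NC, a rise of 2.21 (SE 0.25, limma adjusted p = 0.0037). Map2, of dendrites, was at 66.2 and 147.7 TPM in NPC and 606.1 and 541.8 TPM in NC, a rise of 2.52, and Mapt, of axons, rose by 3.51. Stmn4 rose by 3.84, Prph by 3.45 and Stmn2 by 2.67. All 24 genes had both NC libraries above both NPC libraries, as did 8153 of the 20232 genes tested. Prph was uneven in NC, with 45.5 TPM in replicate 1 and 11.1 in replicate 2, and did not pass without NPC replicate 1 (adjusted p = 0.0681) or 2 (0.0504). The count of the list was 13 when NPC replicate 1 was left out. Axon guidance genes rose in 16 of 27 tested and fell in 1, Unc5a. Slit1, a repellent ligand, was at 6.362 and 13.7 TPM in NPC and 109.3 and 112.8 TPM in NC, a rise of 3.43. Epha5 rose by 2.77 and Sema3a by 2.46. Dcc and Robo3, receptors of axons that cross the midline, rose by 2.18 and 1.85. When NPC replicate 1 was left out, 9 guidance genes were higher and Robo3 did not pass (0.0829), and without NC replicate 2 the count lower was 2.

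Of 27 presynaptic genes 23 rose and 0 fell (median 2.01), and of 22 postsynaptic genes 17 rose and 1 fell (median 1.34). These counts stand beside 15.2% of all genes higher and 10.1% lower. Without NC replicate 1 or 2, 24 presynaptic and 19 postsynaptic genes reached the filter. Syt4, a vesicle calcium sensor family member, was at 3.661 and 3.397 TPM in NPC and at 81.5 and 34.2 TPM in NC, a rise of 3.57 (limma adjusted p = 0.0038). Rab3c rose by 3.47 and Sv2a by 2.85, while Syp and Snap25 rose by 1.80 and 1.49. On the receiving side Nlgn3, an adhesion protein, was at 0.29 and 0.592 TPM in NPC and at 22.2 and 12.7 TPM in NC, a rise of 3.63. Dlg2 rose by 3.38, Lrrtm2 by 2.40, Shank1 by 2.23 and Dlg4 by 1.57. Camk2a, a kinase abundant in mature forebrain excitatory neurons, went the other way, with 22.9 and 21.3 TPM in NPC and 9.475 and 3.222 TPM in NC, a fall of 1.79. The counts higher without NPC replicate 1 were 9 presynaptic and 4 postsynaptic. The postsynaptic count was 7, 9 and 11 without NPC replicate 2, NC replicate 1 and NC replicate 2. Lrrtm2 and Camk2a did not pass without either NPC library (adjusted p between 0.0852 and 0.142), nor Syp and Snap25 without NPC replicate 1 (0.0639 and 0.0666), and the fall of Camk2a was 1.14 without NC replicate 2.

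Genes of both excitatory and inhibitory transmission rose, with 0 lower in either list. Of 17 glutamate genes 14 rose (median 2.20), and of 14 GABA and glycine genes 12 rose (median 2.21). Members that passed the filter through the NC libraries alone could only rise. Without NC replicate 1, 13 glutamate and 10 GABA and glycine genes reached the filter. Without NC replicate 2, 12 glutamate and 10 GABA and glycine genes did. Slc17a6, the vesicular glutamate transporter of brainstem, spinal and diencephalic neurons (chr7:51621830-51671125), was at 0.187 and 0.572 TPM in NPC and at 28.9 and 21.6 TPM in NC, a rise of 4.25 (SE 0.28, limma adjusted p = 0.00286). Slc17a7, the transporter of cortical pyramidal neurons, was at 0.382 and 0.712 TPM in NPC and at 3.206 and 1.69 TPM in NC, a rise of 1.13 (adjusted p = 0.044). TPM is scaled per length, so the level of Slc17a6 in NC can be read against that of Slc17a7, and it was higher in each NC library. Gad2, which makes GABA, was at 2.186 and 4.893 TPM in NPC and at 73.0 and 75.4 TPM in NC, a rise of 4.12. Gad1, which overlaps an antisense gene, rose by 3.20, from 7.478 and 11.96 TPM to 89.8 and 101.7 TPM. Slc32a1, the GABA and glycine vesicle transporter, rose by 2.96 and Slc6a5, the glycine transporter, by 2.84. In both NC libraries Gad1 and Gad2 stood above Slc17a6 and Slc17a7. Among receptors, Grin2d rose by 2.67, Gria2 by 2.62, Gria1 by 2.56 and Grin1 by 2.46. Of 12 tested cholinergic, monoaminergic and motor neuron genes 4 rose and 2 fell, beside 15.2% of all genes higher and 10.1% lower. Ache rose by 2.05, Th by 2.01 and Slc5a7 by 1.82, and Mnx1, of motor neurons, fell by 2.68 to 0.234 and 0.89 TPM.

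These transmitter counts fell when libraries were left out, and fewer members were tested without an NC library. The glutamate count was 6, 7, 7 and 9 without NPC replicate 1, NPC replicate 2, NC replicate 1 and NC replicate 2. The GABA and glycine count was 7, 7 and 6 in the first 3 of these. The cholinergic, monoaminergic and motor neuron list had 0 calls without NPC replicate 1, 2 higher and 0 lower without NPC replicate 2, 1 lower without NC replicate 1 and 1 higher without NC replicate 2. Ache, Th, Slc5a7, Gria1, Grin2d and Grin1 did not pass without NPC replicate 1 (adjusted p between 0.0577 and 0.157). Slc5a7, Grin2d and Grin1 also did not pass without NPC replicate 2 (0.0684, 0.0633 and 0.12), Th without NC replicate 2 (0.0943), and Grin1 without NC replicate 1 (0.138) or 2 (0.0582). Slc17a7 did not pass without NPC replicate 1, NPC replicate 2 or NC replicate 1, nor without either mESC library (adjusted p between 0.0669 and 0.226), while Gad1 and Gad2 passed in each of the 6 leave-out fits and Slc17a6 in the 4 that tested it.

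**Figure D4:**
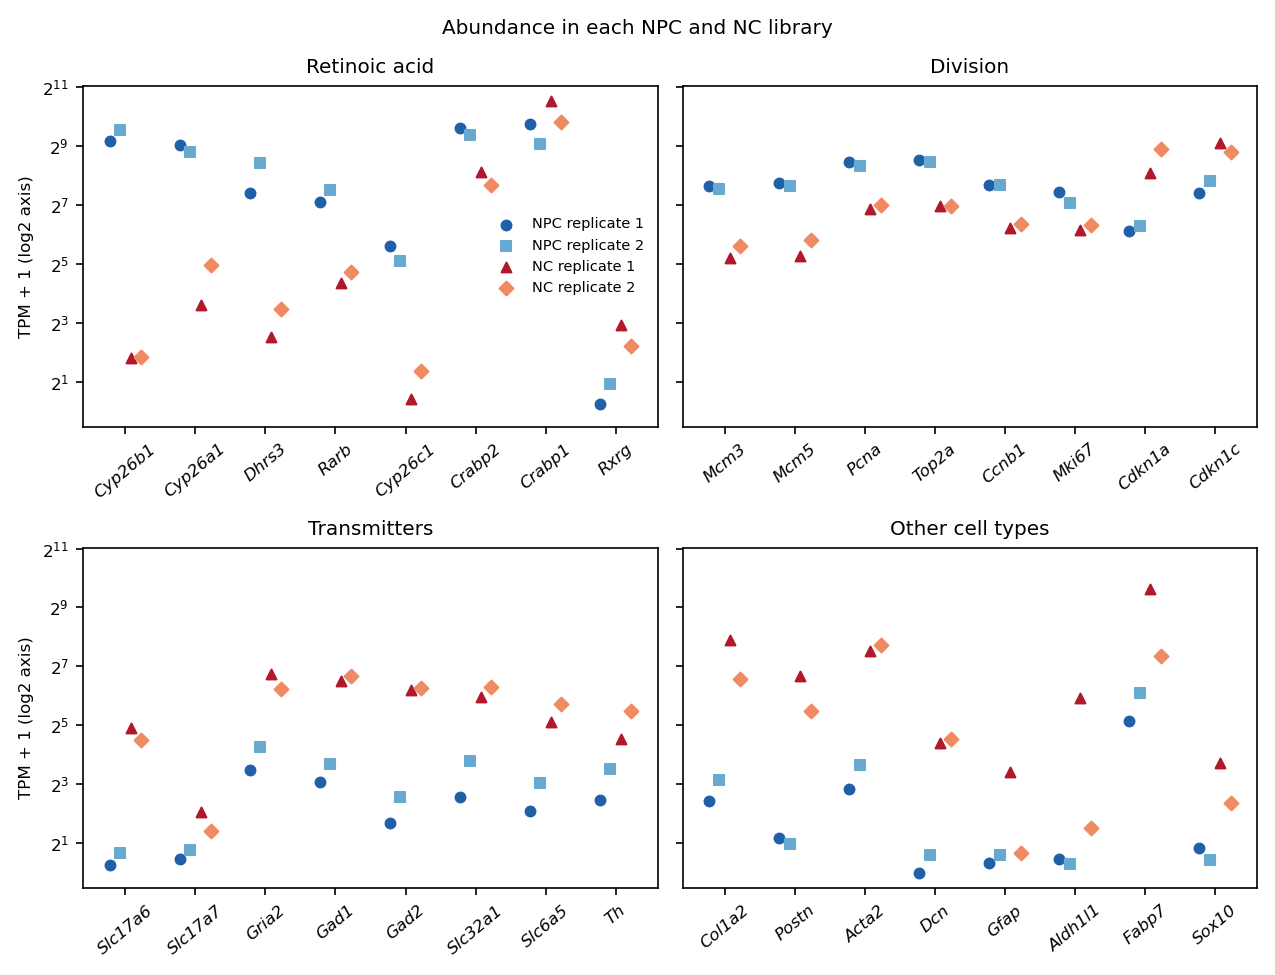
Points give TPM + 1 on a log2 axis in NPC replicates 1 and 2 (blue) and NC replicates 1 and 2 (red) for 8 genes each of retinoic acid handling, division, transmitters and other cell types. The 2 NC points of Cyp26b1 lie on each other at 2.516 and 2.567 TPM, while those of Aldh1l1 (59.3 and 1.888 TPM) and Gfap (9.717 and 0.598 TPM) lie far apart.

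Of 25 tested voltage-gated channel genes 23 rose and 0 fell, beside 15.2% of all genes higher and 10.1% lower. Their median log2 fold change was 2.18. Genes found in NC alone could pass the filter and could then only rise. Of the 25, 17 reached the filter without NC replicate 1 (median 2.24) and 17 without NC replicate 2 (median 2.19). Cacna2d1, a calcium channel subunit, was at 2.735 and 4.713 TPM in NPC and at 59.0 and 37.8 TPM in NC, a rise of 3.39 (limma adjusted p = 0.00315). The sodium channel genes Scn3b and Scn2a1 rose by 3.32 and 2.92. Neuropeptide and secretory granule genes rose in 11 of 18 tested, of which 13 and 14 reached the filter without NC replicates 1 and 2. Npy was listed at 0 in both NPC libraries and was at 27.6 and 19.9 TPM in NC. Scg2, a granule protein, rose by 4.34, Penk by 3.79 and Vgf by 3.68. Sst, which was already at 86.7 and 132.1 TPM in NPC, was at 250.2 and 625.5 TPM in NC. Penk was higher in NC replicate 1 (58.6 against 8.249 TPM) and Vgf in NC replicate 2 (71.9 against 14.8 TPM). The channel count was between 13 and 14 without each of the 4 libraries in turn, and the peptide count was 5, 7 and 7 without NPC replicate 1, NPC replicate 2 and NC replicate 2. Penk, Vgf and Sst did not pass without NPC replicate 1 (adjusted p = 0.105, 0.0734 and 0.143) or 2 (0.0719, 0.0629 and 0.0657). The rise of Penk was 2.44 without NC replicate 1 and that of Sst 1.22 (adjusted p = 0.0528) without NC replicate 2.

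The design text names pyramidal neurons. The 18 forebrain and cortical genes listed summed to 303.8 and 348.8 TPM in NPC and to 424.4 and 363.6 TPM in NC. Tbr1, Emx1, Fezf2 and Otx1 were all under 1 TPM in the 4 libraries and were not tested. Of 13 tested forebrain and cortical genes 3 rose and 0 fell, beside 15.2% of all genes higher and 10.1% lower. Bcl11b went from 0.817 and 2.646 TPM to 18.8 and 9.963 TPM, a rise of 2.52. Pou3f1 rose by 1.55 and Tle4 by 1.05. Neurod2 and Neurod6, factors of cortical projection neurons, were at 20.7 and 14.7 TPM in NC replicate 1 and at 0.219 and 0 TPM in replicate 2, and did not reach the filter. Factors of spinal and hindbrain interneurons rose in 14 of 23 tested and fell in 0, with a median log2 fold change of 2.00. Of the 23, 21 and 19 reached the filter without NC replicates 1 and 2. Lmx1b, of dorsal excitatory neurons, was at 2.347 and 1.982 TPM in NPC and at 36.8 and 39.0 TPM in NC, a rise of 3.62 (SE 0.24, limma adjusted p = 0.00286). Tlx1 rose by 3.23 and Pou4f2 by 2.89. Evx1 rose by 3.29 and was uneven, with 45.5 and 12.7 TPM. Pax2, of inhibitory interneurons, rose by 2.00 to 110.2 and 106.7 TPM, and Lbx1 and Lhx1 by 2.22 and 1.46. Isl1 was at 5.285 and 6.056 TPM in NPC and 4.39 and 10.7 TPM in NC and did not pass. Leaving out NPC replicate 1 gave 0 forebrain and 8 spinal and hindbrain genes higher, and leaving out NC replicate 2 gave 1 forebrain gene. Bcl11b, Evx1, Lbx1, Lhx1, Pou3f1 and Tle4 did not pass without NPC replicate 1 (adjusted p between 0.0588 and 0.18), where the rise of Pou3f1 was 0.98. Lbx1, Lhx1, Pou3f1 and Tle4 also did not pass without NC replicate 2 (between 0.0743 and 0.144), nor Evx1 and Tle4 without NPC replicate 2 (0.0606 and 0.0993), nor Pou3f1 without NC replicate 1 (0.0741) or either mESC library (0.0523 and 0.0534).

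The median log2 fold change of 25 HOX genes was -0.56. Of these genes 8 fell and 0 rose, beside 10.1% of all genes lower and 15.2% higher. Anterior genes were among those that fell. Hoxb1 was at 21.3 and 14.2 TPM in NPC and at 1.247 and 3.939 TPM in NC, a fall of 2.47 (limma adjusted p = 0.0113), and Hoxd1 and Hoxd4 fell by 2.25 and 1.36. Hoxd4 overlaps Hoxd3 on the same strand. Among more posterior genes Hoxb9 was at 197.8 and 490.3 TPM in NPC and at 32.0 and 365.7 TPM in NC, so its NC and NPC ranges overlapped (adjusted p = 0.329). Over 2-fold more was found in NC replicate 2 than in replicate 1 for 9 of 25 HOX genes, among them Hoxa7, Hoxa9 and Hoxc8, and in the reverse direction for 0. The same genes differed in NPC, where Hoxa7 was at 13.4 and 39.9 TPM, Hoxa9 at 1.252 and 5.471 TPM and Hoxc8 at 1.584 and 8.355 TPM in replicates 1 and 2. Leaving out either NPC library gave 3 HOX genes lower. Hoxb1 did not pass without NPC replicate 1 (adjusted p = 0.0852) nor Hoxd4 without NPC replicate 2 (0.0508).

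Of 15 neural splicing genes 11 rose and 1 fell. Rbfox1, a neuronal splicing factor, was at 3.682 and 7.735 TPM in NPC and at 77.6 and 44.5 TPM in NC, a rise of 3.23 (limma adjusted p = 0.00433). Celf4, Celf5 and Celf6 rose by 3.07, 2.46 and 2.21. The gene that fell was Ptbp1, which represses neuronal exons, by 0.88, while its paralogue Ptbp2 did not pass (adjusted p = 0.516). Over all genes 15.2% were higher and 10.1% lower. In the BAF remodelling complex, 5 of 8 neuronal subunits rose and 0 fell. Of 8 progenitor subunits 1, Smarca4, rose by 0.56, a share near that of all genes. Actl6b, the neuronal actin-like subunit, was at 10.9 and 15.2 TPM in NPC and at 96.5 and 88.0 TPM in NC, a rise of 2.75. Dpf1, Dpf3 and Ss18l1 rose by 2.24, 1.92 and 1.61. Of 10 DNA methylation writers and cofactors 4 fell and 1 rose. Uhrf1, Hells, Dnmt3b and Dnmt1, the last being the maintenance enzyme, fell by 1.49, 1.62, 1.31 and 0.81, and Zfp57, which keeps imprints, rose by 1.99. Dnmt3a was at 57.7 and 64.8 TPM in NPC and 83.2 and 67.3 TPM in NC (adjusted p = 0.686). Of 14 genes of TET oxidation and demethylation 4 rose, by 0.79 to 1.78: Apobec1, Gadd45b, Gadd45g and Neil1. None of these is a TET enzyme, and Tet3 did not pass (adjusted p = 0.0853). Of 10 methyl-CpG readers 2 rose and 1 fell, shares near those of all genes. When NPC replicate 1 was left out, 1 neuronal BAF gene was higher and 2 methylation writers lower, and 0 demethylation, reader or progenitor BAF genes passed. Of the demethylation genes 0 to 2 were higher in every leave-out fit and 2 were lower without either mESC library, and 0 readers were higher without any 1 of the NPC and NC libraries. Smarca4 lost its call without 3 of the 4 NPC and NC libraries, and Ptbp1, Dnmt3b, Dnmt1, Dpf1, Dpf3 and Ss18l1 without NPC replicate 1 (adjusted p between 0.0577 and 0.0905). Ptbp1 and Dnmt1 also did not pass without NPC replicate 2 (0.0617 and 0.0619), so 0 splicing genes were lower without either NPC library.

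Of 21 genes of glycolysis and sugar transport 15 fell and 1 rose, beside 10.1% of all genes lower and 15.2% higher. Their median log2 fold change was -1.71. Slc2a1, the glucose transporter (chr4:119108711-119137983), was at 998.0 and 1096 TPM in NPC and at 22.7 and 53.7 TPM in NC (SE 0.44, limma adjusted p = 0.00299). Pdk1, which holds pyruvate back from the mitochondria, was at 53.2 and 64.7 TPM in NPC and at 10.4 and 1.695 TPM in NC, a fall of 3.43. Slc16a3, a lactate exporter, fell by 3.42 and Ldha by 2.82. Ldha was at 1643 and 1880 TPM in NPC and at 387.9 and 157.9 TPM in NC. Gapdh was at 3789 and 3513 TPM in NPC and at 1441 and 981.7 TPM in NC, a fall of 1.62. Eno2, the neuronal enolase, rose by 2.24 while Eno1 fell by 2.28. Summed over the list, NPC held 16240 and 17740 TPM and NC 6351 and 3877 TPM. Such a shift in abundant transcripts enters every TPM value, since these sum to a constant. Of 20 hypoxia response genes 6 fell and 0 rose, with a median of -0.82. Ankrd37 fell by 3.01, Bnip3 by 2.39, Adm by 1.80 and Car12 by 1.59. Leaving out NPC replicates 1 and 2 gave 7 and 8 glycolysis genes lower, and 2 were higher without NC replicate 2 or either mESC library. The hypoxia count was 0 without either NPC library, 3 without either NC library and 11 or 12 without an mESC library. Ankrd37, Bnip3, Adm, Car12 and Pdk1 did not pass without either NPC library (adjusted p between 0.0588 and 0.15), Bnip3 and Car12 without NC replicate 2 (0.0952 and 0.0998), Adm and Car12 without NC replicate 1 (0.069 and 0.0552), Gapdh and Eno1 without NPC replicate 1 (0.0568 and 0.051), and the fall of Ankrd37 was 1.88 without NC replicate 2.

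The promoters of the 3 genes of these lists with the largest difference between the NC libraries that hold the core of the hypoxia response element (ACGTG or GCGTG, both strands) are printed with the core in capitals. This core is short and was in 43.8% of all windows. It was in 75.0% of 32 glycolysis windows and 77.3% of 22 hypoxia windows, and also in 73.1% of the mitosis windows.
Aldoc chr11:78322823-78323102 (plus strand): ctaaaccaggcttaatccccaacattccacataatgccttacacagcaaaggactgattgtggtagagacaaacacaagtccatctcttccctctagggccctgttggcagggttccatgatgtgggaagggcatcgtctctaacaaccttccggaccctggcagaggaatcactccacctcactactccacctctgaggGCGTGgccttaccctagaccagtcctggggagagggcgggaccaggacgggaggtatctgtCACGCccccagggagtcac
Ankrd37 chr8:45999821-46000100 (minus strand): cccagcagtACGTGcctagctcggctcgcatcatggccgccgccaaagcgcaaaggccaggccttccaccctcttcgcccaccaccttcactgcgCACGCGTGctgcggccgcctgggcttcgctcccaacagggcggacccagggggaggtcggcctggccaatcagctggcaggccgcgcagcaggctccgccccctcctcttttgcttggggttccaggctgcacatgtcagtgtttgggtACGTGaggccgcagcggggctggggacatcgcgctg
Pdk1 chr2:71872974-71873253 (plus strand): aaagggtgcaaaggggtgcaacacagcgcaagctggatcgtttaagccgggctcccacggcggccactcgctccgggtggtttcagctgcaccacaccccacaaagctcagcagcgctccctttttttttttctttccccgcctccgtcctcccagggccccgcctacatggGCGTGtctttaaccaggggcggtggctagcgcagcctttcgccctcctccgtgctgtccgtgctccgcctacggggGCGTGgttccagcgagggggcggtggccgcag

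Markers of fibroblasts and smooth muscle rose in 12 of 16 tested and fell in 0, beside 15.2% of all genes higher and 10.1% lower. Their median log2 fold change was 3.09. Of the 16, 13 reached the filter without NC replicate 1 (median 2.53) and 13 without NC replicate 2 (median 2.82). The summed level of the 18 markers was 277.1 and 289.7 TPM in NPC and 1356 and 1811 TPM in NC. Col1a2 (chr6:4504814-4541544), a collagen chain, was at 4.336 and 7.834 TPM in NPC and 234.6 and 94.7 TPM in NC (SE 0.53, limma adjusted p = 0.00402). Acta2, smooth muscle actin, was at 6.133 and 11.5 TPM in NPC and at 184.1 and 213.1 TPM in NC, a rise of 4.40. Col3a1, Col1a1 and Dcn rose by 3.87, 4.12 and 4.18. Twist1 and Fn1 did not pass (adjusted p = 0.912 and 0.355). Postn, named above, belongs to this list. Tnc, Bgn, S100a6 and Anxa1 rose alongside the list, and the part of such cells in those rises was not tested. Tnc, S100a6 and Anxa1 were higher in NC replicate 2, and Postn, Bgn and Col1a2 in NC replicate 1. Of 10 neural crest and peripheral glia genes 5 rose: Sox10 by 2.41, Tfap2b by 2.19, Tfap2a by 2.07, Foxd3 by 1.70 and Ngfr by 1.16. None of the 5 calls was made without NPC replicate 1 (adjusted p between 0.0724 and 0.202), and the counts were 2, 3 and 1 without NPC replicate 2, NC replicate 1 and NC replicate 2 and 3 without either mESC library. In a fit of the NPC and NC libraries alone, and in one without the filter on low values, 0 of these genes were called. The rise of Foxd3 was 0.93 without NC replicate 1 and that of Ngfr 0.65 without NC replicate 2.

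Epithelial markers fell in 5 of 9 tested, endoderm markers in 3 of 11 and endothelial markers in 2 of 9, with 0 higher in each. Over all genes 10.1% were lower and 15.2% higher. Cldn6, a tight junction gene, was at 108.0 and 67.5 TPM in NPC and at 5.943 and 17.9 TPM in NC, a fall of 2.92 (limma adjusted p = 0.0133). Epcam fell by 2.58, Foxa1 by 2.92 and Sox17 by 2.73, and Cldn5 by 2.03. Krt8 was at 34.1 and 136.6 TPM and Krt18 at 33.6 and 136.5 TPM in NC replicates 1 and 2. Of 11 oligodendrocyte genes 4 fell, led by Myrf (2.13) and Olig2 (2.02), and 2 rose, Sox10 and Mog, a share near that of all genes. Of microglia markers only 3 of 13 reached the filter, and C1qa, C1qb, C1qc, Tyrobp and Lyz2 were listed at 0 in all 4 libraries. Csf1r rose by 1.05 and was called in none of the 4 leave-out fits that tested it, the NC libraries being needed for the filter. With NPC replicate 1 left out, 1 epithelial, 0 endoderm and 0 endothelial genes were lower. The epithelial count was 3 without NPC replicate 2 or NC replicate 1, and the endoderm count was 1 without NPC replicate 2 or either NC library and 5 without either mESC library. Oligodendrocyte genes gave 0 or 1 higher and 1 to 3 lower without each NPC and NC library in turn. The falls of Cldn6, Epcam, Sox17 and Cldn5 did not pass without NPC replicate 1 (adjusted p between 0.0509 and 0.122), nor did the rise of Mog (0.0715). Sox17 did not pass without any 1 of the NPC and NC libraries (between 0.0564 and 0.122). Pluripotency genes fell in 5 of 17 and rose in 1. Pou5f1 was at 0.766 and 1.076 TPM in NPC and listed at 0 in both NC libraries, and Nanog did not exceed 0.161 TPM. Pou5f1 did not pass without any 1 of the NPC and NC libraries (adjusted p between 0.0543 and 0.135). Sall4 fell by 3.49 and Nr0b1 by 2.43, and Esrrb rose by 2.24, from 1.288 and 1.465 TPM to 12.3 and 8.443 TPM. Of the 17, 9 reached the filter only with the mESC libraries. The count lower was 3 without either NPC library, and the count higher 3 without NC replicate 1.

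The 2 NC libraries are a pair with no replicate of either, so their differences are a description with no test. Over 2-fold more in NC replicate 1 was found for 884 genes (4.4% of those tested) and over 2-fold more in replicate 2 for 856 (4.2%). Among 15 tested astrocyte markers 6 were over 2-fold higher in replicate 1 and 0 in replicate 2, with a median log2 difference of 0.90 against -0.02 over all genes and -0.04 for the same markers between the NPC libraries. Aldh1l1, a folate enzyme of astrocytes (chr6:90486427-90600203), was at 59.3 and 1.888 TPM in NC replicates 1 and 2 and under 0.4 TPM in NPC. Aldoc, the brain aldolase (chr11:78322968-78327781), was at 98.6 and 3.021 TPM in NC and 13.6 and 14.3 TPM in NPC, so replicate 1 stood above and replicate 2 below the NPC libraries. Ttyh1, Thy1, Thrsp, Atp1b2, Tlcd1 and Hes5 were the other genes with the largest excess in replicate 1. Thy1 was at 58.3 and 2.306 TPM and Ttyh1 at 267.9 and 14.8 TPM. Gfap, the astrocyte filament, was at 9.717 and 0.598 TPM and Sparcl1 at 105.8 and 34.0 TPM. The summed level of the 20 astrocyte markers was 1628 and 1350 TPM in NPC and 1285 and 785.2 TPM in NC, so it was highest in NPC. Among the 15 astrocyte genes 2 rose between the stages (Slc1a2 by 1.44 and Slc14a1 by 1.31), a share below the 15.2% of all genes, and 3 fell, with Id3 lower by 3.10 and Gja1 by 1.13. The counts were 4 higher and 2 lower without NC replicate 2, 1 higher and 5 lower without NC replicate 1, 0 higher and 1 lower without NPC replicate 1, and 1 and 1 without NPC replicate 2. Slc1a2, Slc14a1 and Gja1 did not pass without NPC replicate 1 (adjusted p = 0.0907, 0.0982 and 0.0769), nor the last 2 without NPC replicate 2 (0.0944 and 0.0618).

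Glycolysis genes were also higher in NC replicate 1, in 19 of 21, with a median log2 difference of 0.68. Against the mean of NPC the median was -1.38 in NC replicate 1 and -2.01 in replicate 2, so the fall was present in each. Genes of the ATF4 stress response and serine synthesis were the reverse: 10 of 16 were over 2-fold higher in NC replicate 2, and the median difference was -1.11. Trib3, a stress-induced pseudokinase, was at 5.622 and 7.334 TPM in NPC and at 3.627 and 32.5 TPM in NC, and Ddit3 at 30.1 and 32.0 TPM against 43.8 and 111.5 TPM. Atf4 itself was at 208.6 and 483.3 TPM in NC. The share of these 16 genes higher between the stages was near the 15.2% of all genes. Of the 16, 2 passed between the stages (Slc7a11, higher by 1.64, and Atf5, by 1.45, or 0.77 without NC replicate 2), and 5 without NC replicate 1. In turn, 0 passed without NPC replicate 1 and 1 without NPC replicate 2, NC replicate 2 or either mESC library. Atf5 did not pass in those 5 fits (adjusted p between 0.0614 and 0.186), nor Slc7a11 without NPC replicate 1 (0.0802). Of 9 epithelial markers 7 were over 2-fold higher in NC replicate 2. The genes with the largest excess there were Hoxb9, Plaur, Thbs2, Pagr1a, Thbs1, Hoxb5os, Ctgf and Vgf. Plaur, the urokinase receptor, was at 4.96 and 47.8 TPM, Thbs1, a matrix glycoprotein, at 25.3 and 170.1 TPM, and Ctgf, a matrix growth factor, at 34.0 and 181.0 TPM in NC replicates 1 and 2. Thbs2 passed between the stages, with a rise of 2.74, or 4.12 and 1.36 without NC replicates 1 and 2, and did not pass without an NPC or mESC library (adjusted p between 0.0724 and 0.189). Hoxb5os lies across Hoxb5 and Hoxb6 on the opposite strand.

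Some of the counts above moved by over 1.5 times in 2 further fits. With no filter on low values, the counts higher were 0 for progenitor, 1 for Notch, 3 for kinase inhibitor, 10 for postsynaptic, 9 for glutamate, 6 for neuropeptide, 1 for forebrain and 9 for spinal and hindbrain genes. In the same fit 0 retinoic acid genes, 2 cholinergic, monoaminergic and motor neuron genes and 1 gene each of demethylation, methyl-CpG readers, oligodendrocytes and the ATF4 list were higher. The counts lower were then 2 for progenitor, 4 for HOX, 9 for glycolysis, 1 for hypoxia, 1 for epithelial, 1 for endoderm and 2 for oligodendrocyte genes, and 0 for postsynaptic genes. With the NPC and NC libraries alone, 5 kinase inhibitor, 6 neuropeptide, 2 cholinergic, monoaminergic and motor neuron, 1 retinoic acid, 1 oligodendrocyte, 1 ATF4 and 1 demethylation gene were higher and 3 epithelial and 2 demethylation genes lower. Csf1r was called in neither fit. A mean of at least 5 TPM over NPC and NC left 15 channel genes tested, of which 14 were higher.

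**Figure D5:**
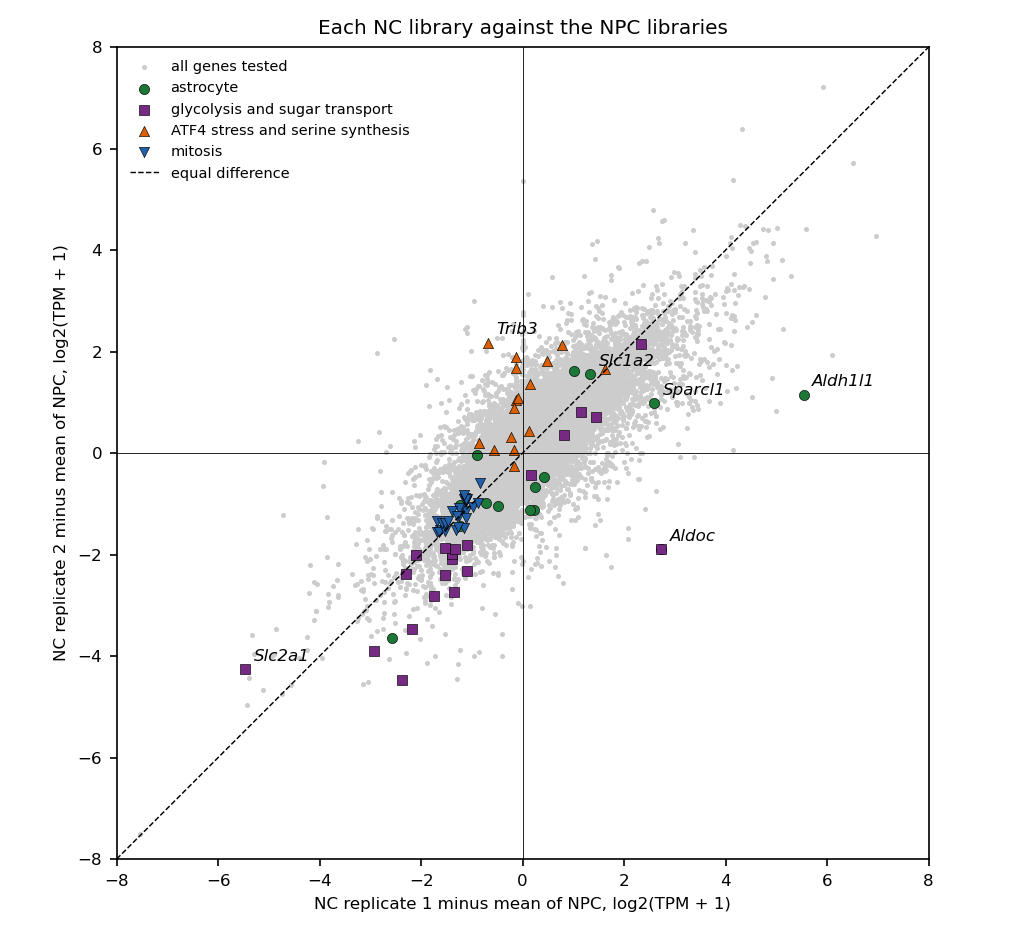
Each point is a gene, placed by its log2(TPM + 1) difference from the NPC mean in NC replicate 1 (horizontal) and in NC replicate 2 (vertical), with the dashed line marking equal differences. Mitosis genes lie near the line below 0. Most astrocyte genes (11 of 15) and glycolysis genes (19 of 21), such as Aldoc and Aldh1l1, lie below it, and most ATF4 genes, such as Trib3, above it. Slc1a2 and Slc2a1 lie above it.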

How the data were processed

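RNA was taken from 2 libraries each of mESC, NPC and NC. Messenger RNA was enriched with beads, depleted of ribosomal RNA and sequenced on an Ion Proton, per the labels' protocols. Reads were trimmed with cutadapt 3.4, aligned with STAR 2.7.9a to mm10 and assembled with StringTie 2.1.5, per the submitters' processing notes, with annotation release and strand setting not given in the sources used here. Deposited gene tables hold coverage, FPKM and TPM as the authors computed them, per the file headers. Rows of 1 gene ID were summed. Coverage and FPKM were used for aligned bases only, and neither was tested.

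The main test was limma 3.58.1 in R 4.3.3 (lmFit, eBayes with a trend) on log2(TPM + 1), with 1 coefficient per group over all 6 libraries, 3 residual degrees of freedom, genes at 1 TPM or more in at least 2 of 6 libraries, and Benjamini-Hochberg adjustment over all 20232 genes with a threshold of 0.05. A fold change on log2(TPM + 1) understates the change of low genes. An exact permutation test of 2 against 2 libraries cannot go below p = 0.333. The script was tested on simulated data. Counts are not in the tables, so no count test was run, and no interval for counting error is given.

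Members and lists (41 lists, 736 symbols, 673 tested) were chosen with earlier results of these data known. Named genes are the 12 with the largest rise and the 12 with the largest fall among genes that passed, stood apart and reached 20 TPM; up to 4 per list, or the most abundant 3 where fewer than 2 passed; 13 set genes; and the 8 with the largest difference each way between the NC libraries. Beyond these 193, 81 genes were chosen after their values were seen, among them Rarb, Slc32a1, Slc6a5, Neurod2, Neurod6, Col3a1, Camk2a, Ptbp1 and Trib3. Of all these, 50 overlap an expressed gene on the opposite strand and 28 on the same strand. Some genes are not reported here. Alternatives were another pseudocount (0.1), no filter, a mean of at least 5 TPM, the NPC and NC libraries alone, no trend, 2 other scalings, a replicate block and leaving out each library.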

Additional observations from a re-analysis of the deposited data

How the results depend on the processing

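The count of genes changed between NC and NPC was 5123 (3079 higher, 2044 lower). Without a filter on low values, where 33702 genes shared the adjustment, it was 3166 (1972 higher, 1194 lower). Leaving out 1 library gave 805 to 5264 genes changed, 537 to 3147 higher and 268 to 2117 lower, with the lowest counts without NPC replicate 1; without an NC library 4709 of the 5123 genes reached the filter. The other settings gave 4086 to 5330 genes changed. No gene called in both the full fit and an alternative changed sign, and under quantile normalization 1 gene called in full had the opposite sign. Of 213 named genes called, and where still tested, 95 lost their call without NPC replicate 1, 54 without NPC replicate 2, 29 without NC replicate 1, 29 without NC replicate 2, 9 without either mESC library, 60 without the filter and 37 with the NPC and NC libraries alone. Aldoc, at 0.42 (limma adjusted p = 0.847), was -1.90 without NC replicate 1 (adjusted p = 0.0331) and 2.73 without NC replicate 2, since its 2 NC libraries lie on either side of NPC. A replicate block gave 4247 calls. The correlation over genes of the deviations of NPC and NC libraries with the same number was -0.07. This value cannot show whether libraries of equal number share a culture or day, which the labels do not say. TPM keeps no read counts, so depth limits the low genes to an unknown extent.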

Other observations

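Imprinted genes are expressed from the copy of 1 parent. Between NPC and NC 10 of 20 rose and 3 fell, beside 15.2% of all genes higher and 10.1% lower. Their median log2 fold change was 1.04 against 0.11 over all genes. Magel2 was at 3.479 and 2.713 TPM in NPC and at 18.2 and 29.0 TPM in NC, a rise of 2.56 (limma adjusted p = 0.00418). Nnat, a neuronal membrane protein, rose by 2.28 to 3226 and 1950 TPM, and Meg3, a long noncoding RNA, rose by 2.05 to 1586 and 2166 TPM. Dlk1 and Igf2, growth regulators, rose by 1.97 and 1.45, whereas Grb10 and Plagl1 fell by 1.39 and 1.15. H19 was at 473.4 and 632.8 TPM in NPC and at 1799 and 636.5 TPM in NC and did not pass (adjusted p = 0.262). The counts were 3 higher and 1 lower without NPC replicate 1, 4 and 1 without NPC replicate 2, and 6 and 1 without NC replicate 1. They were 4 and 1 with no filter on low values. Dlk1 did not pass without either NPC library (adjusted p = 0.091 and 0.0759), nor Igf2 and Grb10 without NPC replicate 1 (0.0888 and 0.0603), nor Igf2 without NC replicate 2 (0.0525), nor Plagl1 without NPC replicate 2 or NC replicate 1 (0.0912 and 0.0598).

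Immediate early genes, which respond to activity and stress, rose in 8 of 16 tested and fell in 0. Among all genes tested 15.2% were higher and 10.1% lower. Of the immediate early genes, some reached the filter only through the NC libraries. Of the 16, 13 and 12 reached the filter without NC replicates 1 and 2. Egr1 was at 2.078 and 2.744 TPM in NPC and at 17.8 and 22.7 TPM in NC, a rise of 2.64 (limma adjusted p = 0.00651). Npas4, induced by calcium entry in neurons, was at 0.325 and 0.581 TPM in NPC and at 4.551 and 4.596 TPM in NC, a rise of 1.95, and Nr4a2 and Egr3 rose by 1.85 and 1.83. The count was 1 without NPC replicate 1, 4 without NPC replicate 2 and 5 without NC replicate 2, and Egr1, Egr3 and Nr4a2 did not pass without NPC replicate 1 (adjusted p between 0.0539 and 0.0585). Of 17 genes of developmental timing, where a fit of the NPC and NC libraries alone or one with no filter gave 2 higher and 2 lower, 5 rose, with Nfix higher by 2.103 and Nfib by 2.01, and 4 fell, with Hmga1 lower by 1.68 and Lin28b by 1.40. Lin28a was at 146.7 and 42.1 TPM in NPC and at 2.006 and 33.4 TPM in NC (adjusted p = 0.0938). The timing counts were 1 higher and 1 lower without NPC replicate 1, 3 and 2 without NPC replicate 2, 2 lower without NC replicate 1 and 8 lower without NC replicate 2, and Nfix, Nfib and Lin28b did not pass without NPC replicate 1 or NC replicate 1. Lin28b also did not pass without NPC replicate 2 (adjusted p = 0.106), and its fall was 0.86 without NC replicate 1. Of 17 cholesterol synthesis genes 4 rose, and none of these calls was made without either NPC library.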
